A study of Mus musculus with 4 samples.

Results

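The libraries numbered 1 were compared with the libraries numbered 0 in a study of N6-methyladenosine (m6A) in the mouse cerebral cortex. The comparison took in every row of the deposited peak table, 33977 of 33977, and all 4 libraries, 2 of each number. A row is a stretch of a gene that the authors called as an m6A peak, with the raw read count of each library over it. All 4 libraries were made from total cortex RNA extracted with TRIzol, and the labels give the same anti-m6A antibody (Synaptic Systems) for each. The sham group held library 0 and library 1, and the TBI group, for traumatic brain injury, held another library 0 and library 1. The injury protocol, the time after injury, the strain, sex and age of the mice and the number of animals behind a library are details that the labels do not state. Nor do they state what the number stands for, so it is used here only as the labels use it, as a name. Nothing says whether the libraries came from separate mice, and no 2 libraries share both group and number. The p-values therefore set the ratio of the numbers against how far that ratio differs between sham and TBI, pooled across rows. They do not measure the spread between mice.

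m6A is a methyl group on adenosine inside messenger RNA, set by a methyltransferase complex around Mettl3 and Mettl14, removed by demethylases such as Fto and Alkbh5, and read by proteins such as the Ythdf family. It is known to be densest near stop codons and in the 3′ untranslated region (3′ UTR), and it bears on splicing, translation and decay of the RNA. In the brain it is known for roles in neurogenesis, synaptic function and the response to injury.

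The table held peaks on 10415 genes, each row with an annotation class: cds for coding sequence, utr3 and utr5 for the untranslated ends, and NP_exon, which the file does not spell out. Of the tested NP_exon rows, 352 lay on genes that RefSeq lists as long noncoding RNA. The libraries held between 13753600 and 26888072 counts over the rows. The number 1 library had 1.83 times the counts of the number 0 library in sham and 1.96 times in TBI, so the number and the sequencing depth cannot be told apart. The 5 excitatory neuron markers checked all had a row, and the blood markers Hba-a1 and Hbb-bs had none. Gad1, Pvalb, Gfap, Mag, Pecam1 and the choroid plexus marker Ttr had none either, though other markers of their cell types did. A missing row therefore does not show that a cell type was absent. The summed level of 3 thalamus markers differed between the groups, at 241 and 218 CPM (counts scaled to a common library total after TMM) in sham libraries 0 and 1 against 32.8 and 31.7 in the TBI libraries. The choroid plexus, striatum and oligodendrocyte markers were lower in TBI too, at 29.0 and 32.0 against 7.43 and 7.59 CPM, 355 and 363 against 177 and 171 CPM, and 436 and 430 against 318 and 295 CPM. Of the 11 thalamus marker rows, 3 were called higher and 4 lower in number 1. In bulk tissue, fewer cells of a type, less RNA per cell and other differences between the samples cannot be told apart. The cause was not tested.

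The numbers parted on a large share of the table. Of 33415 rows with enough counts to test, 12736 were called at an adjusted p under 0.05, which was 38.1% of the rows. Number 1 was higher in 5699 of them (17.1% of the rows tested) and lower in 7037 (21.1%). When each group's own ratio of number 1 to number 0 was taken, 75.59% of all tested rows had the same sign in sham and in TBI. Among called rows this share was 99.87%. The fit nearly fixes this, since a row is called where its ratio over both groups is large against a shared spread. A call does not show that the ratios in sham and TBI were of like size. The test was edgeR's quasi-likelihood test with the group as a covariate, which leaves 1 residual degree of freedom. The fit gave all weight to a spread shared across rows of like level. The p-value of a single row thus does not reflect that row's own spread, which 1 residual degree of freedom could hardly measure. An exact permutation of the numbers within the groups could not reach a two-sided p below 0.5. Scaling by library size in place of TMM raised the median log2 of all rows by 0.0986 and turned the split to 7347 rows higher and 5253 lower. The class and span medians below are therefore given relative to that of all rows. Calls and the log2 ratios of single rows are on the TMM scale. Calls by class or span are not given under library-size scaling. Without group as a covariate 5485 rows were called. Leaving out 1 library, with number alone in the model, gave 2376 calls without sham library 0, 2748 without sham library 1, 1575 without TBI library 0 and 1766 without TBI library 1.

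By size, with no test and on the TMM scale, the balance over all tested rows was the other way. The log2 ratio of number 1 to number 0 was above 0.5 in both groups in 4039 rows (12.1%) and below -0.5 in both groups in 2503 rows (7.49%). It lay beyond 0.5 in opposite directions in 1002 rows. The balance turned with level. Of the 8354 rows with the lowest average log CPM from edgeR, 1498 were above 0.5 in both groups and 167 below -0.5. Of the 8354 rows with the highest, 787 were above 0.5 in both groups and 1323 below -0.5. The middle 90% of rows had log2 ratios, averaged over sham and TBI, between -0.71 and 0.97. The groups agreed more closely in deep rows. Across all tested rows, the log2 ratio in sham and that in TBI had a Pearson correlation of 0.48, which is a description over rows that share libraries and, in part, reads. Over the 16263 rows with at least 100 counts in every library the correlation was 0.89, and 87.52% of rows had the same sign in both groups. The median gap between the groups' log2 ratios was 0.23 over all rows and 0.13 over the deep rows.

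**Figure D1:**
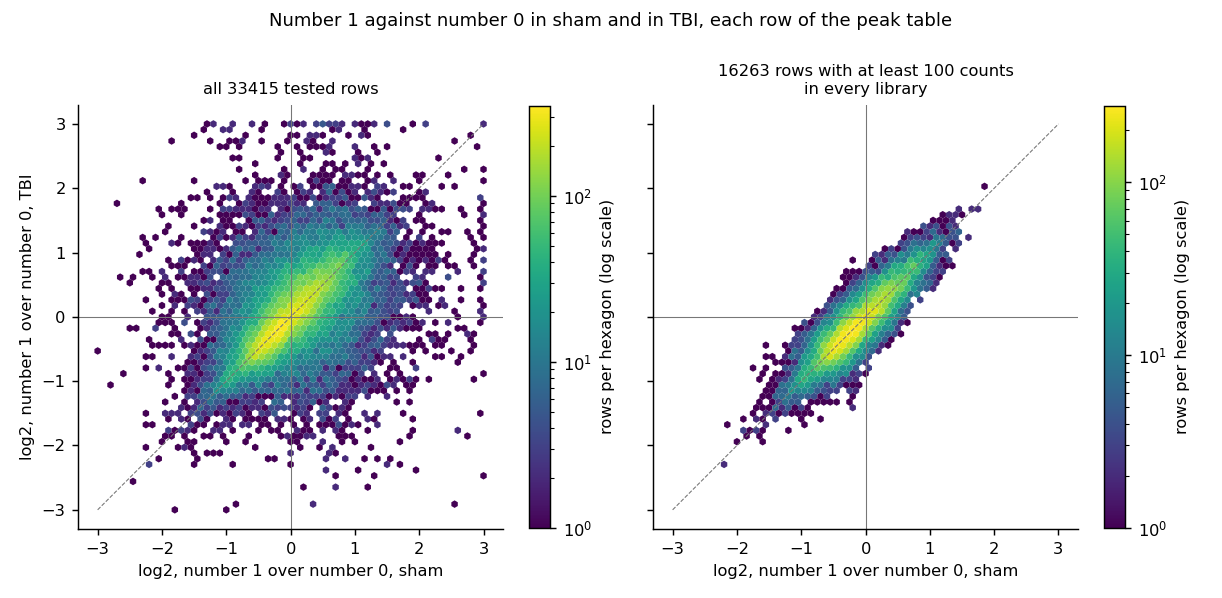
Each hexagon counts rows of the peak table by their log2 ratio of number 1 to number 0 in sham (horizontal) and in TBI (vertical), on a log colour scale, with ratios beyond 3 drawn at the edge. All 33415 tested rows form a broad cloud along the diagonal, and the 16263 rows with at least 100 counts in every library lie close to it.

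The annotation classes parted in opposite directions. Rows in 3′ UTRs leaned to number 1, with a median log2 ratio 0.12 above that of all rows (0.13 in sham, 0.14 in TBI). Of 13211 such rows, 21.63% were called higher and 11.76% lower. Rows in coding sequence leaned the other way, with a median 0.09 below that of all rows in sham and 0.10 below in TBI, and 14.66% of 16925 rows were called higher against 28.56% lower. The 5′ UTR rows had a median within 0.01 of all rows. The NP_exon rows had a median of -0.10, with 9.16% of 1201 rows higher and 20.73% lower. Seen from the calls, 3′ UTR rows made up 39.54% of the tested rows, 50.15% of the calls higher in number 1 and 22.07% of the calls lower. Coding rows made up 50.65% of the tested rows and 68.68% of the lower calls.

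The span of a row, from its first to its last base on the genome with any introns between, gave a wider range of medians than the class did. The log2 ratio was highest at the middle spans. Relative to all rows, the median was 0.00 for rows under 250 bases, 0.19 for rows of 250 up to 500 bases and 0.20 for rows of 500 up to 1000 bases. It was -0.23 for rows of 1000 up to 5000 bases and -0.47 for rows of 5000 bases and over. The rows of 500 up to 1000 bases were called higher in 42.18% of cases and lower in 13.16%. The 3487 longest rows were called lower in 68.63% and higher in 6.74%, and both groups gave this shift, at -0.43 in sham and -0.48 in TBI. A log2 ratio below -0.5 in both groups was found in 34.99% of the longest rows and a ratio above 0.5 in 0.889%. The longest rows were 10.44% of the tested rows and 34.01% of the lower calls.

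Class and span were also read together. The 3′ UTR rows of 500 up to 1000 bases had the highest median of any class and span, 0.36, and 54.14% of these 1535 rows were called higher against 5.86% lower. Coding rows of the same span had a median of 0.10. Short 3′ UTR rows, under 250 bases, stood at -0.01, and those of 5000 bases and over at -0.32. The lowest median was that of the 275 longest 5′ UTR rows, -0.67, of which 78.18% were called lower. Of the 61 longest NP_exon rows, 52 were called lower and 0 higher.

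**Figure D2:**
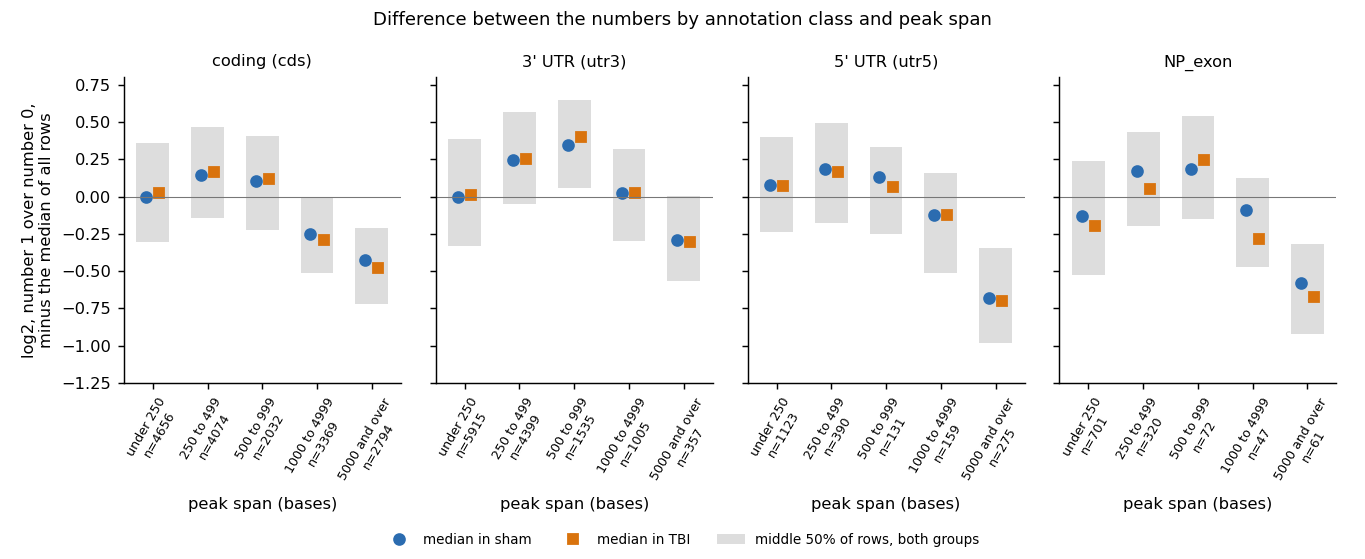
Median log2 ratio of number 1 to number 0, minus the median of all rows, by class (panels) and span in bases (horizontal), in sham (circles) and TBI (squares), with grey bars for the middle 50% of rows and n the number of rows. Sham and TBI lie close together in most bins and furthest apart in the 47 NP_exon rows of 1000 up to 5000 bases, the 3′ UTR rows of 500 up to 1000 bases stand highest, and the rows of 5000 bases and over stand below 0 in all 4 classes.

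The level of a row moved with its span, from a median of 3.09 CPM under 250 bases to 44.6 CPM at 5000 bases and over, and the log2 ratio also fell with the level. The rows were therefore split by the average log CPM from edgeR into 4 bins of near-equal size. The longest rows were low in each, with medians from the lowest to the highest level of -0.33, -0.56, -0.54 and -0.44. The rows of 500 up to 1000 bases were high in each, at 0.20, 0.26, 0.21 and 0.17. The rows under 250 bases did not hold 1 place, and went from 0.24 at the lowest level to -0.37 at the highest, where 67.02% were called lower.

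Other features were read the same way. Among rows under 1000 bases, the place along the gene made little difference, with medians from 0.07 in the first 10% of the gene's RefSeq span to 0.12 in the last 10%. Rows of genes shorter than 5 kb had a median of 0.18, and rows of genes of 100 kb and over one of -0.04. The NP_exon rows fell into a low and a high set by their neighbours. Where such a row lay within the span of another, protein-coding gene (890 rows), the median was -0.19 and 25.96% were called lower. Where it did not (311 rows), the median was 0.21 and 5.79% were called lower.

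The table stacks a set of peaks called in sham on a set called in TBI, and many rows of the sets overlap, so that 33415 rows make 21327 clusters of overlapping rows. The set a row came from moved with the sign of the groups' ratios. Rows of the sham set stood 0.09 above the median of all rows in sham and 0.09 below it in TBI. Rows of the TBI set stood 0.11 below it in sham and 0.09 above it in TBI. The sources used here name neither the peak caller nor the libraries it was run on, so the ratio of the numbers is not shown to be independent of how rows were chosen, and the part of this choice in the calls was not tested. With 1 row kept for each cluster, 6900 of 21327 rows (32.4%) were called.

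Comparing rows within a gene removes what all rows of a gene share. In 3047 genes with both kinds of row, the 3′ UTR rows stood 0.19 above the coding rows (median over genes, 0.18 in sham and 0.21 in TBI). The 3′ UTR was the higher in both groups in 48.41% of these genes and the lower in both in 22.35%. The gap by span was wider. In 1413 genes, coding rows of 1000 bases and over stood 0.32 below the shorter coding rows (0.28 in sham, 0.34 in TBI), and were the lower in both groups in 67.16%. With rows under 1000 bases only, the difference between 3′ UTR and coding rows was 0.08 over 2132 genes.

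A gene could thus hold rows on either side. Of 2719 genes with a row called higher and 3604 with a row called lower, 943 had both, which is 34.68% of the former and 26.17% of the latter. The widest gap was in Hivep2, a zinc finger transcription factor gene, with 21 rows, 3 called higher and 5 lower. Its 5′ UTR row of 5539 bases held 13.1 and 2.85 CPM in sham libraries 0 and 1, and 18.1 and 3.63 CPM in the TBI libraries 0 and 1. Its 3′ UTR row of 571 bases held 38.3 and 67.9 CPM in sham and 41.5 and 83.1 CPM in TBI. The first row was low in both number 1 libraries and the second was high in both, with log2 ratios of -2.26 (SE 0.18) and 0.92 (SE 0.08).

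Lats1, a kinase of the Hippo pathway, showed the same kind of gap. Its 5′ UTR row of 10037 bases had a log2 ratio of -1.77 (SE 0.18), and a coding row of 450 bases had 1.16 (SE 0.17). Zfp407, a zinc finger gene with 19 rows, had a coding row of 332 bases at 1.67 (SE 0.14) and a 5′ UTR row of 26573 bases at -1.12 (SE 0.13). In Fryl, the 3′ UTR row of 271 bases stood at 1.85 (SE 0.16) and a coding row of 2769 bases at -0.98 (SE 0.18). In Zbtb46, a transcription factor gene, a coding row of 301 bases stood at 1.17 (SE 0.24) and a 5′ UTR row of 12552 bases at -1.56 (SE 0.28). In each of these 5 genes the lowest called row spanned over 1000 bases and the highest did not. Other rows went the other way, since rows under 1000 bases were called lower in Hivep2 (2 rows) and Zfp407 (1 row). A row of 1000 bases and over was called higher in Lats1, at 0.52, in Fryl, at 0.42, and in Zfp407, at 0.39. The higher Zbtb46 row had log2 ratios of 1.99 in sham and 0.53 in TBI.

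**Figure D3:**
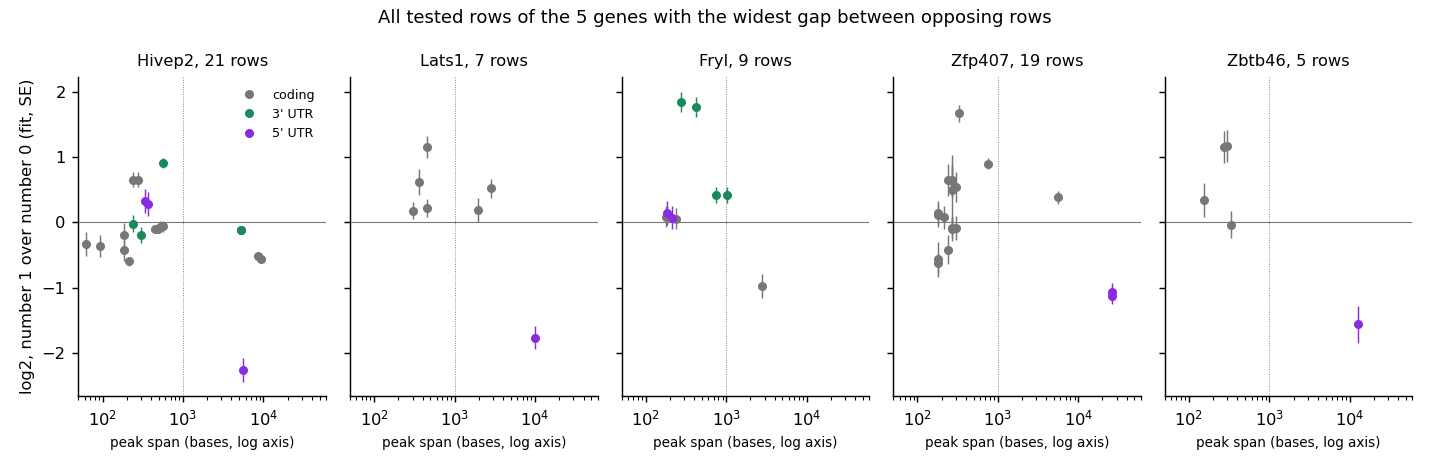
Fitted log2 ratio of number 1 to number 0 with its standard error (vertical) against span in bases on a log axis (horizontal), for every tested row of the 5 genes with the widest gap between opposing rows, coloured by class, with a dotted line at 1000 bases. The lowest row of each gene lies to the right of that line, down to -2.26 in Hivep2, and in 4 of the 5 genes it is a 5′ UTR row.

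The rows that led the higher side were short and mostly in 3′ UTRs. They are the 12 genes whose ratio was largest in the group where it was smaller. Of these rows 9 lay in 3′ UTRs and 3 in coding sequence, spans ran from 209 to 512 bases, and fitted ratios ran from 3.14 to 6.63 fold. Ier5l, a relative of the immediate early gene Ier5, led them with its 3′ UTR row at chr2:30472639-30472878, GRCm38, minus strand. This row held 0.998 and 6.14 CPM in sham libraries 0 and 1 and 1.06 and 7.63 CPM in the TBI libraries 0 and 1. Both number 1 libraries lay far above both number 0 libraries, and the log2 ratio was 2.73 (SE 0.29).

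Nr2f2, which encodes the nuclear receptor COUP-TFII, had its row in the 3′ UTR at 41.3 and 139 CPM in sham and 22.7 and 74.6 CPM in TBI. Sham was above TBI at each number, and the ratio of the numbers was alike in both, with a log2 of 1.74 (SE 0.08). Leng8 held 9.05 and 33.5 CPM in sham and 8.49 and 34.8 CPM in TBI in its 3′ UTR row, so the groups nearly coincided at each number. Its log2 ratio was 1.96 (SE 0.13). Sdpr, listed today as Cavin2 and coding for a coat protein of caveolae, had a log2 ratio of 2.06 (SE 0.22) in its 3′ UTR row. Rlf, a zinc finger gene, held 11.8 and 36.2 CPM in sham and 12.4 and 40.8 CPM in TBI in its coding row.

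The remaining leading higher rows were in Zfp407, Gne, C330018D20Rik, Gprin3, Fryl, Nab2 and Fancl. Gne codes for an enzyme of sialic acid synthesis, Gprin3 for a G protein-regulated inducer of neurite outgrowth, and Nab2 for a corepressor of the Egr transcription factors. Fancl codes for a ubiquitin ligase of DNA repair. Their log2 ratios lay between those of Gprin3, 1.65 (SE 0.15), and Nab2, 1.96 (SE 0.32). The numbers did not overlap in any of the 12 rows, which were chosen for their ratio in both groups, against 60.33% of all tested rows.

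The rows that led the lower side were of every class and of both extremes of span, 6 under 250 bases and 3 of 5000 bases and over. The first of them by the ratio in the group where it was smaller was A230085B16Rik, an NP_exon row of 182 bases at chr8:55057548-55057729 that lies within the span of Gpm6a, a neuronal membrane glycoprotein gene. It held 63.7 and 13.6 CPM in sham libraries 0 and 1 and 70.7 and 14.8 CPM in the TBI libraries. The number 1 libraries lay far below the number 0 libraries in both groups, with a log2 ratio of -2.24 (SE 0.09). Gm37672, within the span of Serpini1, had a log2 ratio of -1.95 (SE 0.24), and Gm38036, within that of Plxna2, one of -1.92 (SE 0.45). Counting appears not to have used the strand. Of 201 pairs of rows of 1 gene on opposite strands that overlapped by at least 90%, 141 had counts within 5% of each other in all libraries, so reads of A230085B16Rik and of Gpm6a cannot be told apart.

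The longest of the leading rows was that of D5Ertd579e, which spans 41818 bases and is annotated to the 3′ UTR. It held 588 and 176 CPM in sham and 523 and 151 CPM in TBI, and its log2 ratio was -1.77 (SE 0.04). The coding row of Actg1, which encodes cytoplasmic gamma-actin, spans 122 bases and held 45.9 and 10.3 CPM in sham and 40.6 and 12.6 CPM in TBI, a log2 ratio of -1.92 (SE 0.11). Actin has near-identical copies, and the sources used here do not say how reads that fit several places were counted. The other rows were in Bbof1, Vat1, Phka2, a regulatory subunit of phosphorylase kinase, and Golgb1, the Golgi protein giantin, with log2 ratios from -2.20 (SE 0.18) in Bbof1 to -1.78 (SE 0.16) in Phka2.

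**Figure D4:**
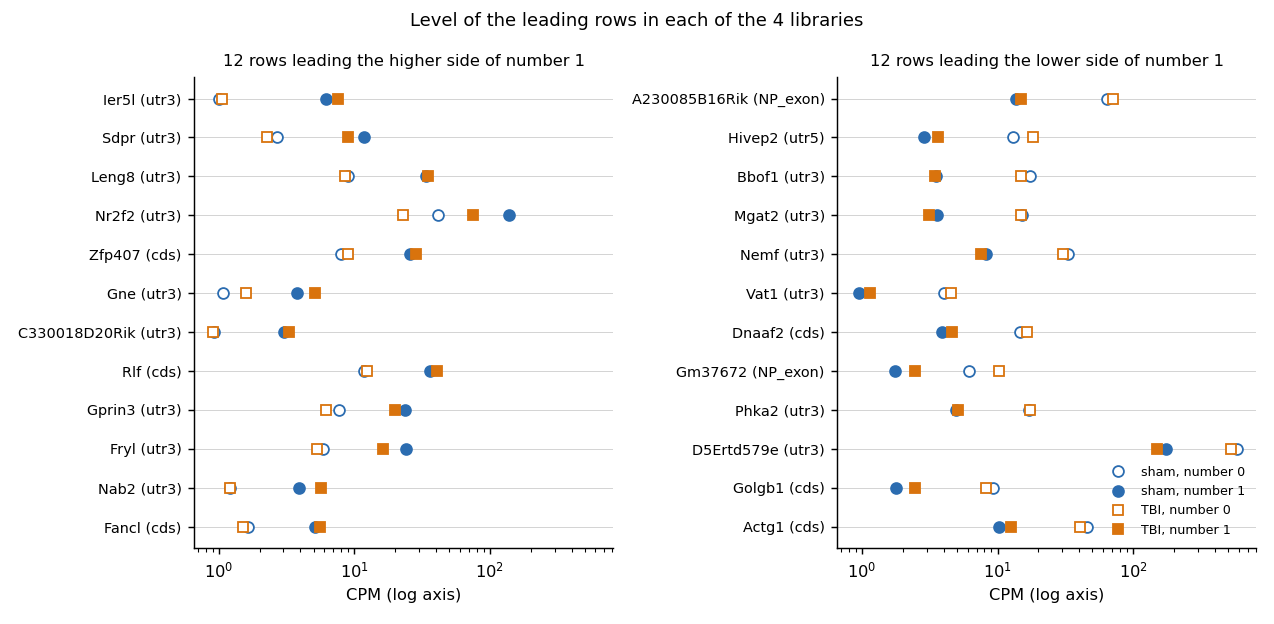
CPM on a log axis (horizontal) in each of the 4 libraries for the 12 rows leading the higher side of number 1 (left) and the 12 leading the lower side (right), with open symbols for number 0, filled for number 1, circles for sham and squares for TBI. In every row, each chosen for its ratio in both groups, the filled symbols lie on 1 side of the open ones, as in 60.33% of all tested rows.

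The leading lower rows Mgat2, Dnaaf2 and Nemf are neighbours on chromosome 12. Mgat2 codes for a Golgi enzyme of N-glycan synthesis, Dnaaf2 for an assembly factor of ciliary dynein, and Nemf for a factor of ribosome-associated quality control. In RefSeq (GRCm38.p6) the 7SL RNA genes Rn7s1, at chr12:69159295-69159593, and Rn7s2, at chr12:69361183-69361481, lie on either side of them. All 16 tested rows from 50 kb before Rn7s1 to 50 kb after Rn7s2, on 5 genes, were called lower in number 1, against 21.1% of all rows, in a region chosen after the values were seen. The rows are not independent, since the 2 Rpl36al rows have identical counts and the 4 Dnaaf2 rows nearly so. Their log2 ratios ran from -2.16 in the Mgat2 3′ UTR to -0.23 in a long coding row of Nemf, with a median of -1.103. None of the 16 overlapped an Rn7s gene.

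The Mgat2 3′ UTR row held 15.1 and 3.58 CPM in sham libraries 0 and 1 and 14.9 and 3.13 CPM in the TBI libraries. The Nemf 3′ UTR row held 33.1 and 8.23 CPM in sham and 30.3 and 7.52 CPM in TBI. The 4 Dnaaf2 rows, which overlap on both strands, had log2 ratios from -1.88 to -1.87. Rows of the same genes were not alike, since the Mgat2 coding row of 329 bases stood at -0.99 (SE 0.12) and the Nemf coding row of 8103 bases at -0.24 (SE 0.05). The other genes were Rpl36al, a ribosomal protein gene, at -0.55 (SE 0.08), and Arf6, a small GTPase, with 4 rows from -1.66 to -0.43.

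The leaders of the smaller classes were as follows. In 5′ UTRs, Homer1, a postsynaptic scaffold, was higher, at 9.91 and 26.4 CPM in sham and 11.9 and 36.4 CPM in TBI, a log2 ratio of 1.52 (SE 0.12). Homer1 had 9 rows, 2 called higher and 3 lower. Ppp1r9b, the dendritic spine protein spinophilin, was higher in a row of 3597 bases, at 439 and 957 CPM in sham and 438 and 985 CPM in TBI. The groups nearly coincided there, and its log2 ratio was 1.15 (SE 0.04). Fam63b followed at 1.38 (SE 0.43). On the lower side, the Rpl28 row of 90 bases stood at -1.87 (SE 0.25). Among NP_exon rows, Gm45449, within the span of Rnf150, was higher at 1.58 (SE 0.13), followed by RP23-438P19.11 and E530011L22Rik. In coding rows, Slitrk4, a synaptic adhesion gene, was higher at 1.80 (SE 0.29).

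Genes were then read by role. For each gene the median over its rows was taken, and list medians are given relative to that of all 10209 tested genes, beside the 17.1% of all rows called higher and 21.1% called lower. Level moves with these calls. Of the 8354 rows with the highest average log CPM from edgeR, 48.06% were called lower and 26.1% higher, with a median of -0.20. Most genes named below are shown by 1 row, and other rows of such a gene can go the other way. A list median covers only the genes of the list with a tested row. These were 22 of 78 ribosomal protein genes, 22 of 76 oxidative phosphorylation genes and 10 of 34 names listed as brain noncoding RNAs. Ribosomal protein genes, the parts of the ribosome, had a median of -0.49 over the 22 measured genes (-0.34 in sham, -0.53 in TBI). Of their 36 rows 25 were called lower and 0 higher, and 19 of 22 genes were below in both groups. Rpl23a held 305 and 198 CPM in sham libraries 0 and 1 and 302 and 182 CPM in the TBI libraries, a log2 ratio of -0.68. Its number 1 libraries were lower by a like amount in both groups. Rpl5 stood at -0.65 and Rpl17 at -0.51. Ribosomal protein genes have many processed copies in the genome, so their counts are uncertain.

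Of 24 rows of glycolysis and creatine kinase genes, 12 were called lower and 0 higher, with a median of -0.29 over 10 genes. Ckb, brain creatine kinase, held 338 and 181 CPM in sham and 304 and 158 CPM in TBI, a log2 ratio of -0.93. Hk1, the hexokinase of the brain, stood at -1.57 in sham and -0.90 in TBI. Proteasome genes had a median of -0.36 over 13 genes (-0.23 in sham, -0.20 in TBI), with 17 of 32 rows lower and 6 higher. Psmd1 stood at -0.68 and Psma4 at 0.36. Translation and chaperone genes had a median of -0.29 over 20 genes, with 26 of 47 rows lower and 12 higher. Hspa8, a constitutive chaperone, stood at -0.94 in its coding row and Calr, a chaperone of the endoplasmic reticulum, at 0.55 in its 3′ UTR row. Serine/arginine splicing factors had a median of -0.30 over 15 genes, with 33 of 63 rows lower and 7 higher. Tra2b, a splicing regulator, held 55.9 and 19.1 CPM in sham and 55.2 and 19.9 CPM in TBI in a 5′ UTR row of 10734 bases, a log2 ratio of -1.51, while Srsf11 stood at 0.36.

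Abundant cytoskeleton genes had a median of -0.18 (-0.07 from the row with the highest CPM of each gene), with 69 of 152 rows lower and 36 higher. Within this list Ank3, the ankyrin of the axon initial segment, was higher at 0.91 in a 3′ UTR row of 302 bases, and Map2, a dendritic microtubule protein, was lower at -0.51 in a 5′ UTR row of 64694 bases. Oxidative phosphorylation genes of the nucleus had a median of -0.12 (-0.05 from the row with the highest CPM), with 17 of 45 rows lower and 9 higher. Cycs, cytochrome c, stood at -0.74 and Ndufa12, a subunit of complex I, at 0.45.

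Mitochondrially encoded genes were split row by row. Of 19 rows on 7 genes, 10 were called lower and 7 higher, with a median over genes of -0.25. The mt-Nd2 row of 298 bases held 1158 and 2168 CPM in sham libraries 0 and 1 and 959 and 1759 CPM in the TBI libraries, a log2 ratio of 0.89. The mt-Co1 row of 61 bases held 703 and 363 CPM in sham and 613 and 333 CPM in TBI, a log2 ratio of -0.92. Rows of 1 gene differed too, and mt-Nd5 rows ran from -0.47 to 0.34.

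Transcription factor and early response genes came next. Immediate early genes, which neurons switch on within minutes of activity, had a median of 0.34 over 28 genes (0.18 in sham, 0.32 in TBI), and 17 genes were above in both groups against 6 below. Only 15 of their 93 rows were called higher, 16.1%, against 13 lower, so the share of calls was near that of all rows. Egr1 held 168 and 349 CPM in sham libraries 0 and 1 and 231 and 463 CPM in the TBI libraries in its 3′ UTR row. TBI was above sham at each number, and the log2 ratio was 1.03 in the fit. The 5 Egr1 rows had a median log2 ratio of -0.30, with 2 called higher and 2 lower. Jun stood at 1.21, and Nr4a3 was lower at -0.81 in a coding row of 15334 bases. Zinc finger repressors and homeobox factors had a median of 0.10 over 47 genes (0.14 in sham, 0.21 in TBI), with 108 of 423 rows higher and 80 lower. Zbtb18, a repressor in cortical neurons, held 198 and 416 CPM in sham and 225 and 487 CPM in TBI, a log2 ratio of 1.09. Meis2, a homeobox gene, stood at -0.87 and Zeb1, a zinc finger repressor, at -0.73, each in a coding row of over 100 kb. Meis2 had 7 rows, 3 called higher and 2 lower.

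Wnt and Notch genes had a median of 0.05 (0.21 in sham, 0.18 in TBI, and 0.28 from the row with the highest CPM of each gene), with 18 of 159 rows higher and 23 lower. Jag2, a Notch ligand, stood at 0.79 and Lrp6, a Wnt coreceptor, at -0.73. Chromatin regulators had a median of -0.08 over 65 genes, with 119 of 568 rows higher and 156 lower. The median was -0.03 in sham and -0.02 in TBI. Of the 4 rows with the smallest p, the 3′ UTR row of Chd9 (751 bases) stood at 1.34 and the coding row of Nsd1 (601 bases) at 1.06. The rows of Kmt2c (83578 bases) and Mbd5 (37805 bases) stood at -1.02 and -0.94. Mbd5 had 11 rows, 5 called higher and 2 lower.

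The genes of the m6A machinery themselves had rows on both sides, with a median of -0.06 over 17 of 25 genes (-0.05 in sham, -0.14 in TBI), 22 of 87 rows higher and 24 lower. Fto, a demethylase, held 145 and 70.1 CPM in sham and 142 and 69.2 CPM in TBI in a 5′ UTR row of 77046 bases, a log2 ratio of -1.04. Its number 1 libraries were lower in both groups and the groups nearly coincided. Zc3h13 and Rbm15b, adaptor subunits of the methyltransferase complex, stood at 0.80 and 1.17. Zc3h13 had 14 rows, 3 called higher and 7 lower, while all 6 rows of Rbm15b were called higher. Hnrnpa2b1, an RNA-binding protein linked to m6A, stood at -0.47.

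Synaptic and channel genes divided by row more than by list. Postsynaptic scaffold and adhesion genes had a median of -0.02 over 40 genes (-0.04 in sham, 0.03 in TBI), with 76 of 321 rows higher and 69 lower. Nlgn3, a postsynaptic adhesion protein, held 88.8 and 223 CPM in sham libraries 0 and 1 and 84.1 and 239 CPM in the TBI libraries in its 3′ UTR row, a log2 ratio of 1.42. Lrrtm3 and Sipa1l1 were lower, at -0.90 and -1.20, in rows of 157972 and 74876 bases.

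Glutamate and GABA receptor genes had a median of 0.01 (0.16 from the row with the highest CPM of each gene), with 37 of 159 rows higher and 39 lower. The 4 rows with the smallest p in this list were all lower and all over 10 kb long, on Grm7, Gria3, Grm5 and Gabra4, with Gria3 at -0.88 and Grm5 at -0.54. Synaptic vesicle genes had a median of -0.15 (-0.07 from the row with the highest CPM of each gene), with 36 of 174 rows higher and 54 lower. Rims1, a scaffold of the release site, stood at -0.96 in a row of 209098 bases, and Syt1, the calcium sensor of release, at -0.73 in a 3′ UTR row of 122 bases. Potassium and sodium channel genes had a median of 0.00 (-0.01 in sham, 0.05 in TBI), with 64 of 261 rows higher and 46 lower. Scn2a stood at 1.05 in a 3′ UTR row of 780 bases and Kcnb2 at -0.78 in a coding row of 396786 bases.

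Among cell type lists, excitatory neuron markers had the largest share of rows called higher, 28 of 61 (45.9%), with 8 lower. Their median was 0.29 (0.44 from the row with the highest CPM of each gene) and 10 of 11 genes were above in both groups. For the 5 markers checked above, the summed CPM of the top rows went the other way, at 711 and 600 in sham libraries 0 and 1 and 979 and 790 in the TBI libraries. Most of this sum was 1 Camk2a row, at 562 and 430 CPM in sham and 758 and 535 CPM in TBI. Bcl11b, a factor of deep-layer neurons, held 20.9 and 37.0 CPM in sham and 19.3 and 40.9 CPM in TBI, a log2 ratio of 0.95. Camk2a was lower at -0.44 in a 3′ UTR row of 271 bases, and Foxp2 at -0.71 in a 5′ UTR row of 196329 bases. Camk2a had 7 rows, 4 called higher and 2 lower. Interneuron markers had a median of -0.04 over 7 genes (-0.18 in sham, 0.04 in TBI, and -0.26 from the row with the highest CPM), with 9 of 25 rows higher and 4 lower. Lhx6, a factor of these cells, stood at 1.17 and Sst, which encodes somatostatin, at -0.61. Over the 4 checked interneuron markers with a row, 0 of 10 rows were called higher and 4 lower.

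Oligodendrocyte and myelin genes had a median of 0.12 over 16 genes (0.19 in sham, 0.11 in TBI), with 14 of 56 rows higher and 12 lower. Mbp, myelin basic protein, held 139 and 49.6 CPM in sham and 86.5 and 30.1 CPM in TBI in a 3′ UTR row of 62 bases, a log2 ratio of -1.50. Olig2 and Gpr17, genes of the precursor stage, stood at 1.09 and 0.88. Over the progenitor markers Pdgfra, Cspg4 and Gpr17, 4 of 19 rows were called higher and 0 lower. Astrocyte markers had a median of -0.12 over 11 genes (-0.07 in sham, -0.20 in TBI), with 7 of 39 rows higher and 13 lower. Aqp4, the astrocyte water channel, stood at 0.79 in its 3′ UTR row, and Clu, a secreted chaperone, at -0.62.

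Microglia markers, at 17 rows, had 2 called higher and 1 lower, and a median of 0.09 (0.19 in sham, 0.01 in TBI). Endothelial markers, at 13 rows, had 2 higher and 3 lower, with a median of -0.05 (0.03 in sham, -0.09 in TBI). The list of choroid plexus, thalamus and striatum markers had a median of 0.30 over 9 genes (0.09 from the row with the highest CPM of each), with 7 of 33 rows higher and 4 lower. The list of brain noncoding RNAs had a median of 0.03 over 10 genes (-0.04 in sham, 0.06 in TBI, and 0.50 from the row with the highest CPM), with 19 of 100 rows higher and 9 lower. These 10 include a protein-coding gene, Kctd16, with 5 rows, of which 1 was called higher and 0 lower. In this list Snhg14 stood at -1.52 in a row of 8657 bases, and the row named for Kcnq1ot1, an antisense transcript within Kcnq1, at 0.59, where reads of the strands cannot be told apart.

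**Figure D5:**
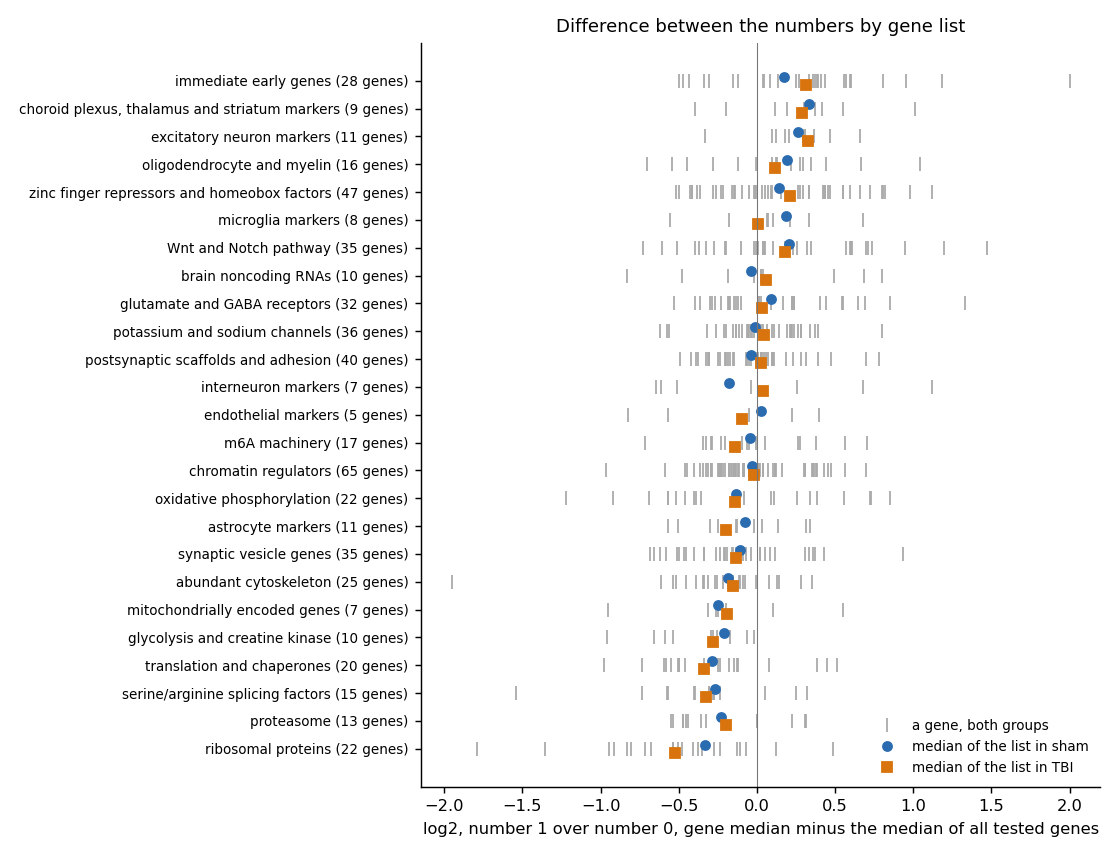
Median log2 ratio of number 1 to number 0 of each of the 25 gene lists, minus that of all tested genes, in sham (circles) and TBI (squares), with grey ticks for single genes and ratios beyond 2 drawn at the edge. Ribosomal proteins stand lowest, at -0.34 in sham and -0.53 in TBI, and immediate early genes, at 0.18 and 0.32, lie among the highest.

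Some rows overlap the hairpin of a microRNA. Over 15 hairpins lay 20 tested rows under 2000 bases, and 9 of the hairpins lay whole within a row. Of the 20 rows 3 were called, against 38.1% of all rows, over Mir671 and Mir7039. The mature sequences (RefSeq, GRCm38.p6) are shown because these are the hairpins under called rows, with the seed, bases 2 to 8, in capitals.
mmu-miR-671-5p: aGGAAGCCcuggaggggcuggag
mmu-miR-671-3p: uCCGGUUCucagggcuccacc
mmu-miR-7039-5p: aGAGGGAUggagagcaucgcgu
mmu-miR-7039-3p: cCUGUUCUgcccucccuuccag
No seed is shared among the 4. The Mir671 hairpin lies whole within a 3′ UTR row of Chpf2, a chondroitin synthesis gene, at chr5:24592012-24592430. This row held 29 and 139 counts in the sham libraries 0 and 1 and 33 and 125 counts in the TBI libraries, a log2 ratio of 1.07 (SE 0.28, edgeR adjusted p 0.0005421). The Mir7039 hairpin lies within a coding row of Smurf1, a ubiquitin ligase, at chr5:144896691-144898033, with 130 and 99 counts in sham and 87 and 123 in TBI. Its log2 ratio was -0.97 (SE 0.21, edgeR adjusted p 2.252e-05), with -1.33 in sham and -0.57 in TBI. These counts cover the whole host row, of which the hairpin is a part, and are no measure of the mature microRNA.

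A difference of the number ratio between sham and TBI could not be fitted, since 1 library for each group and number leaves no residual degree of freedom. The log2 change of the authors' deposited table tracked it closely, with a Pearson correlation of 0.995 across rows with the log2 ratio in TBI minus that in sham. The values come from the same counts, so this describes what the deposited value holds. An adjusted p under 0.05 was given to 3 rows in the authors' deposited table. Shox2, a homeobox gene, held 654 and 2356 counts in the sham libraries 0 and 1 and 4 and 49 counts in the TBI libraries in its 3′ UTR row. Its log2 ratio of number 1 to number 0 was 0.88 in sham and 2.22 in TBI, and the deposited log2 in the authors' deposited table was 1.70, with an adjusted p of 0.006291. The second ratio rests on the 4 counts of 1 library. The same row was far lower in TBI than in sham at each number, as the thalamus markers were, and their part in the result was not tested.

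The other 2 rows were overlapping coding rows of Synpo2, an actin-associated protein. The shorter held 1378 and 3634 counts in sham and 132 and 466 counts in TBI. Its log2 ratio was 0.44 in sham and 0.74 in TBI, and the authors' deposited table gives a log2 of 0.35 and an adjusted p of 0.006018. In the authors' deposited table, the 24 leading rows of the number comparison have log2 values from -0.38 in Fryl to 0.66 in Golgb1, with an adjusted p of 0.998 in each.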

How the data were processed

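Raw read counts of 4 anti-m6A libraries over 33977 peaks were taken from the authors' deposited table. Per the file headers, the deposited columns are counts, a log2 change, its p-value before and after adjustment, and each row's gene, class and span in bases. The submitters' processing notes list STAR, DESeq2 and GRCm39 with no version or role. No source used here names the peak caller. Coordinates were read as GRCm38, since 31869 rows overlap the span of their gene in RefSeq's GRCm38.p6 table, where 9648 gene symbols match 1 span. The deposited lists of higher and lower peaks served only to choose rows, and a further list that breaks off in its last row was not used here.

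Library number was tested with edgeR 4.0.16 (R 4.3.3; filterByExpr, TMM, glmQLFit, glmQLFTest, group as covariate), with Benjamini-Hochberg adjustment over 33415 rows and calls at an adjusted p under 0.05. CPM and the ratios within each group used a prior count of 2 for the log2. The common biological coefficient of variation was 0.0648. Overlaps were found with bedtools 2.31.1. The script was tested on simulated counts. Alternatives were DESeq2 1.42.0, library-size scaling, other filters, number alone, each library left out, each peak set, 1 row for each cluster of overlapping rows and, chosen after seeing the data, limma 3.58.1 with voom weights.

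Named rows have at least 10 counts in every library and are 1 for each gene. They are the 12 genes each way with the largest ratio in the group where it was smaller, 3 each way within each class, up to 4 for each of 25 lists by the smallest p, the 5 genes with the widest gap between opposing called rows, and 4 each way from the deposited lists by deposited log2. Genes and lists were chosen with earlier results of these data known. Not every named row is described.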

Additional observations from a re-analysis of the deposited data

Results flagged for a closer look

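In 8 rows the ratio of number 1 to number 0 stood apart between sham and TBI, and these rows come from the ends of the deposited lists. The difference was not tested here. The log2 ratio in TBI minus that in sham was 2.41 in Pcdhb15, a clustered protocadherin gene, 2.06 in Zmym1, 2.19 in Zfp26 and 2.15 in Rhobtb1. It was -2.62 in Lyrm5, -2.59 in Casz1, a zinc finger factor, -2.54 in Cp, which encodes ceruloplasmin, and -2.48 in Ldhd. These are rows of few counts. Pcdhb15 held 44 and 21 counts in the sham libraries 0 and 1 and 16 and 49 counts in the TBI libraries, and Lyrm5 held 10 and 61 counts in sham and 36 and 34 in TBI. In the authors' deposited table all 8 have an adjusted p of 0.998. Zmym1 differs from the others named here in that its TBI ratio was close to 0, at 0.04 on the log2 scale, against -2.02 in sham.

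The rows that pass in the authors' deposited table are Shox2, with a deposited log2 of 1.70, and the overlapping coding rows of Synpo2, with 0.3526 and 0.3612. All 3 have the number 1 library above the number 0 library in both groups, by more in TBI. All 3 also have far fewer counts in TBI than in sham.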

How the results depend on the processing

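No paired analysis was possible because the library number is itself the contrast. Depth limits single rows, since the median row had 98 to 214 counts in a library. The counts of called rows, higher and lower, moved with most choices, and the cause was not tested. All 12736 calls (5699 higher, 7037 lower) became 6944 (2662 and 4282) with DESeq2, which gave an adjusted p to fewer rows. They became 5485 (2395 and 3090) with number alone, and 6797 (2983 and 3814) in the sham peak set, 5385 (2604 and 2781) in the TBI peak set and 6900 (3073 and 3827) with 1 row for each cluster, where fewer rows are tested. Leaving out 1 library gave 1575 to 2748 calls, 730 to 1322 higher and 835 to 1426 lower. Limma with voom weights gave 5196 and 7326, and library-size scaling 7347 and 5253.

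With at least 10 counts in every library, the medians relative to all rows were -0.0857 for coding rows and -0.000341 for 5′ UTR rows, which turns the sign of the latter. By span they were then -0.0527 under 250 bases, also a turned sign, 0.21 from 250 up to 500, 0.25 from 500 up to 1000, -0.19 from 1000 up to 5000 and -0.42 at 5000 and over. With 1 row for each cluster they were -0.0884 for coding, 0.0115 for 5′ UTR, -0.012 under 250 bases, a turned sign, and 0.24 from 500 up to 1000. TBI alone gave 0.14 for 3′ UTR rows, 0.20 from 250 up to 500 and 0.23 from 500 up to 1000, and sham alone -0.20 from 1000 up to 5000 and -0.43 at 5000 and over. In TBI alone the median of the postsynaptic list was 0.0259.

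Of the 24 leading rows, 0 lost their call under DESeq2, number alone, library-size scaling or voom weights. Without sham library 0, sham library 1, TBI library 0 and TBI library 1, the number lost was 2, 1, 5 and 3. Over all 146 named rows, 22 no longer passed with number alone, 5 with DESeq2 and 1 with voom weights. A library left out took 47 (sham library 0), 38 (sham library 1), 60 (TBI library 0) and 49 (TBI library 1). With a library left out, the Tcf7l2 row ran from -2.43 without sham library 1 to 0.63 without sham library 0, and the Slc17a6 row from -1.31 without sham library 1, through -0.39 without TBI library 0, to 1.99 without sham library 0. These fits have number alone in the model, so a gap between the groups enters the ratio. Both genes are thalamus markers, whose summed level was far lower in TBI. Within the groups, the median log2 ratio over Tcf7l2 rows was -0.39 in sham and -0.33 in TBI. Over Slc17a6 rows it was 0.35 and 0.33. None of the values with a turned sign passed the test.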
